A study of Mus musculus with 3 samples.

Results

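Liver X receptors (LXRs) are nuclear receptors that sense oxidised cholesterol, and the genes described here are the 2 receptors and 5 genes of cholesterol handling that they are known to switch on. The 7 genes were listed by name and were found, each in 1 row, among the 32285 genes of the deposited count matrices. Nr1h3 encodes LXR alpha and Nr1h2 encodes LXR beta. Abca1 and Abcg1 encode membrane transporters that export cholesterol to apolipoprotein A1 and to high-density lipoprotein. Mylip encodes a ubiquitin ligase that limits the uptake of cholesterol, Lpcat3 encodes an enzyme that remodels membrane phospholipids, and Pltp encodes the phospholipid transfer protein.

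LXRs bind DNA as partners of retinoid X receptors, and in macrophages loaded with cholesterol they raise the export of the excess. In the same cells the transcription factor SREBP2, encoded by Srebf2, is held back by sterols, so that synthesis and uptake genes are lowered. This pairing of export with synthesis is a central part of how macrophages and foam cells of the atherosclerotic artery wall handle lipid.

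The genes were measured in immune cells of mouse aorta by single-cell RNA sequencing on droplets, with 3 libraries and 1 library for each group. All 3 groups are labelled as ApoE-/- on the C57BL/6J background, a genotype that raises blood cholesterol by itself, so that by its label the control group is a hypercholesterolaemic model as well. The Apoe counts of 1 library, given with the depths, go against this label. The control group is labelled as control only, the HHcy group drank homocysteine at 1.8 g/L for 4 weeks, and the WD group ate a western diet for 4 weeks. Live nucleated cells carrying CD45, the surface protein of blood-derived cells, were sorted from digested whole aortas. Age, sex and the number of pooled mice are not given in the sources used here.

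Each group has a single library, so the groups were not tested against each other, and every interval below is a 95% interval that covers counting error only. Molecules were counted as unique molecular identifiers (UMIs), and levels are given as CPM, in which a gene is scaled by the total of the cells it was counted in. A gene was counted as past the limit when its ratio to control was at least 1.5-fold in either direction, its exact conditional binomial interval excluded 1, and it had at least 20 UMIs over the 2 libraries. Both comparisons use the same control library. Differences between libraries can come from the treatment, the mice or the preparation, which cannot be told apart.

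The libraries held 7512, 9753 and 8557 barcodes with 66789257, 105180370 and 93164076 UMIs (control, HHcy and WD). After filtering, 5341, 6360 and 5238 cells were used, of which 4800, 5757 and 4688 could be named from marker genes. Pairs of libraries shared 20 to 24 barcodes. The library labelled HHcy went against its genotype label: Apoe was at 1204 CPM in its macrophage/monocyte-like cells, against 26.8 CPM in control and 24.6 CPM in WD. These UMIs were concentrated, with 183 of 1124 such cells holding 10 or more Apoe UMIs, against 1 of 1840 in control and 2 of 2481 in WD. The class and subset comparisons were therefore repeated without such cells, but those of the subsets led by Prg4 and Mmp13 and of the B cell-like sub-clusters were not. Ptprc, which encodes CD45, was at 654 to 928 CPM in macrophage/monocyte-like cells and at 609 to 696 CPM in B cell-like cells.

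Sequence was taken from RefSeq, and 1 stretch of regulatory DNA is shown to place the genes' known control. The 7 genes lie at chr7:44549616-44553968 (Nr1h2), chr2:91184061-91202829 (Nr1h3), chr4:53030789-53159988 (Abca1), chr17:31057694-31117984 (Abcg1), chr13:45389742-45411940 (Mylip), chr6:124663094-124704716 (Lpcat3) and chr2:164839518-164857708 (Pltp) in RefSeq's GRCm38.p6 annotation. RefSeq promoter windows of 300 bases were matched for 6 of the 7 genes. They were searched on both strands for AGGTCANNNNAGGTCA, the direct repeat with a spacer of 4 bases that LXR and its partner are known to bind. Abca1 was the only one with a match of at most 3 mismatches. Its match lies on the opposite strand, starts at position -67 from the transcript start on which the window is built (chr4:53159895, inside the gene span given above) and is shown with its flanks (chr4:53159940-53159969, minus strand of GRCm38.p6), the 2 repeats in capitals.
Abca1: cagcgttTGACCGgtagTAACCCcggcgct
A match this loose was found in 21.9% of 32851 promoter windows of the same length, and one with at most 1 mismatch in 0.25%. The match describes the letters and is no evidence of binding in these cells.

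Across the 5 cell classes with at least 50 cells in each library, Nr1h3 was the most restricted of the 7 genes and Nr1h2 the most even. Nr1h3 stood at 43.6, 38.3 and 47.8 CPM in macrophage/monocyte-like cells of the control, HHcy and WD libraries. In B cell-like cells of similar depth it was at 0.878, 0.581 and 1.38 CPM. Among these 5 classes the macrophage/monocyte-like range lay above that of every other class. The ranges of the remaining 4 classes overlapped in turn from neutrophil-like through conventional dendritic-like and T cell-like to B cell-like cells. Smaller classes were left out of this order. Among them, fibroblast-like cells (30, 86 and 165) held 6, 19 and 18 Nr1h3 UMIs. Group 2 innate lymphoid-like cells (25, 44 and 46) held 6, 1 and 2. In T cell-like cells of the library labelled HHcy no Nr1h3 UMI was seen, which allows up to 1.81 CPM.

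Nr1h2 was at 53.2, 48.9 and 46.4 CPM in macrophage/monocyte-like cells and at 47.6, 45.1 and 43.8 CPM in B cell-like cells. Over the 5 classes its medians ran from 45.1 CPM in B cell-like to 69.9 CPM in T cell-like cells. The T cell-like range of 52.4 to 76.1 CPM overlapped both the neutrophil-like and the macrophage/monocyte-like range. LXR beta RNA was thus measured in all 5 classes.

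**Figure D1:**
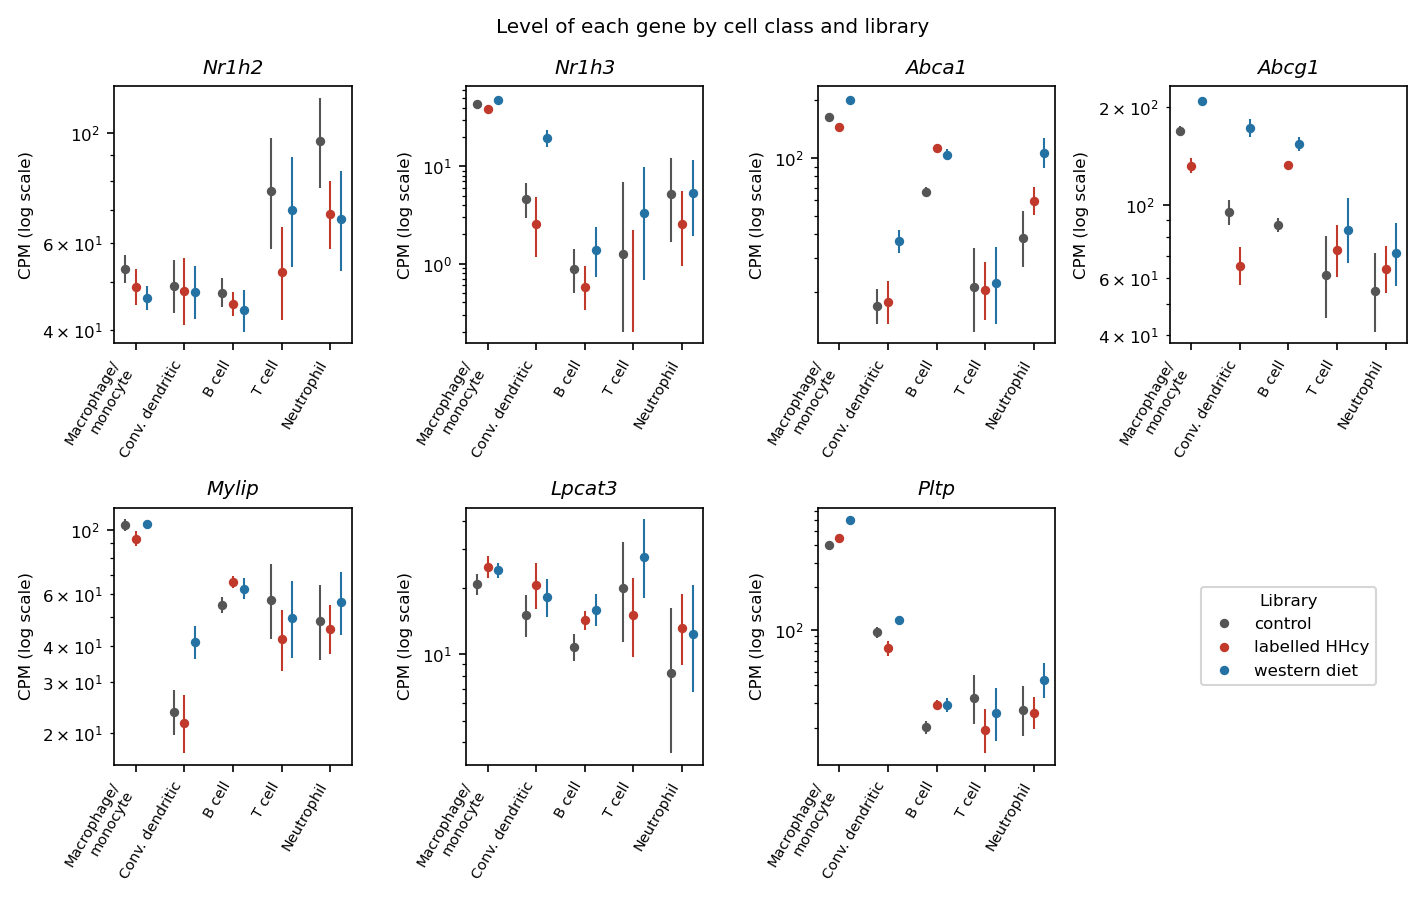
Level of each of the 7 genes (CPM, log axis) by cell class, with points for the 3 libraries and lines for 95% Poisson intervals; a class with 0 UMIs has a line and no point. Nr1h3 and Pltp stand highest in macrophage/monocyte-like cells, with Pltp at 401 to 602 CPM there, while Nr1h2 stays between 43.8 and 96.1 CPM in every class.

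Pltp and Mylip also separated the macrophage/monocyte-like class from the rest of the 5 classes. Pltp was at 401, 451 and 602 CPM there, followed by conventional dendritic-like cells at 95.6, 73.9 and 116 CPM. The other 3 classes overlapped at medians of 25.5 to 29.0 CPM. Mylip was at 104, 93.3 and 105 CPM in macrophage/monocyte-like cells and lowest in conventional dendritic-like cells, at 23.6, 21.7 and 41.3 CPM.

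The transporters were also measured well in B cell-like cells. Abca1 was at 164, 146 and 201 CPM in macrophage/monocyte-like cells and at 66.3, 113 and 104 CPM in B cell-like cells, whose range overlapped the neutrophil-like one of 38.2, 59.6 and 107 CPM. T cell-like cells (21.2, 20.5 and 22.2 CPM) and conventional dendritic-like cells (16.8, 17.7 and 36.8 CPM) had the lowest Abca1. For Abcg1 each class overlapped the next: medians ran from 169 CPM in macrophage/monocyte-like cells through 133 in B cell-like, 95.2 in conventional dendritic-like and 72.8 in T cell-like cells to 63.8 in neutrophil-like cells. Lpcat3 was low and even, with class medians of 12.3 to 24.0 CPM and overlapping neighbours throughout.

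Within the macrophage/monocyte-like class, LXR alpha was concentrated in 2 subsets. Subsets were clustered with the 7 genes and the pathway lists kept out of the variable genes, and were named from markers. Nr1h3 was at 96.3, 192 and 123 CPM in Gpnmb foamy-like macrophages, the lipid-laden type, and at 93.4, 97.2 and 125 CPM in non-classical monocyte-like cells, the patrolling Ly6C-low monocytes. These 2 ranges overlapped, and both lay above the next subset, the Ms4a7 macrophages, at 18.5, 34.8 and 15.7 CPM. The Ms4a7 macrophages scored highest on their own marker list, but Trem2, a marker of the foamy-like list, was also among their leading genes. Lyve1 resident-like macrophages, at 6.14, 5.50 and 10.8 CPM, and cycling cells, at 1.40, 6.36 and 7.29 CPM, had the least and overlapped.

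A share of cells gave the same picture. In non-classical monocyte-like cells 33.9%, 34.3% and 41.7% of cells had an Nr1h3 UMI, or 8.71%, 6.64% and 8.01% after each cell was thinned to 1000 UMIs. In B cell-like cells, used as the background level, the shares were 0.750%, 0.451% and 1.10%, and after thinning 0.141%, 0.0846% and 0 of 1186 cells, which allows up to 0.253%. Median depths were 6970.5, 7759 and 6433 UMIs in the monocytes and 7385, 6354 and 6550 UMIs in the B cell-like cells.

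The make-up of the receptor pair differed between subsets. Nr1h3 gave 72.6%, 78.8% and 74.4% of the UMIs of the 2 receptors in Gpnmb foamy-like macrophages. It gave 59.2%, 63.7% and 72.7% in non-classical monocyte-like cells, where the WD interval (69.2 to 76.0%) lay above that of control (55.7 to 62.7%). In Lyve1 resident-like macrophages it gave 13.5%, 10.2% and 17.3%, and in B cell-like cells 1.81%, 1.27% and 3.06%. In conventional dendritic-like cells the share was 8.53%, 5.085% and 28.9%, the WD interval (24.3 to 33.8%) above that of control (5.60 to 12.3%). Nr1h3 was not past the limit there without cells holding macrophage marker UMIs, as given with the western diet comparison. Over all macrophage/monocyte-like cells it was 45.05%, 43.9% and 50.7%, the WD interval (48.8 to 52.7%) above that of control (42.6 to 47.5%). The share also differed between libraries in Ms4a7 macrophages, at 24.7%, 43.3% and 24.7%, with the library labelled HHcy above the other 2. The 42 Nr1h3 UMIs behind the 43.3% came mostly from a few cells, as given with the homocysteine comparison, and the interval does not allow for this.

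**Figure D2:**
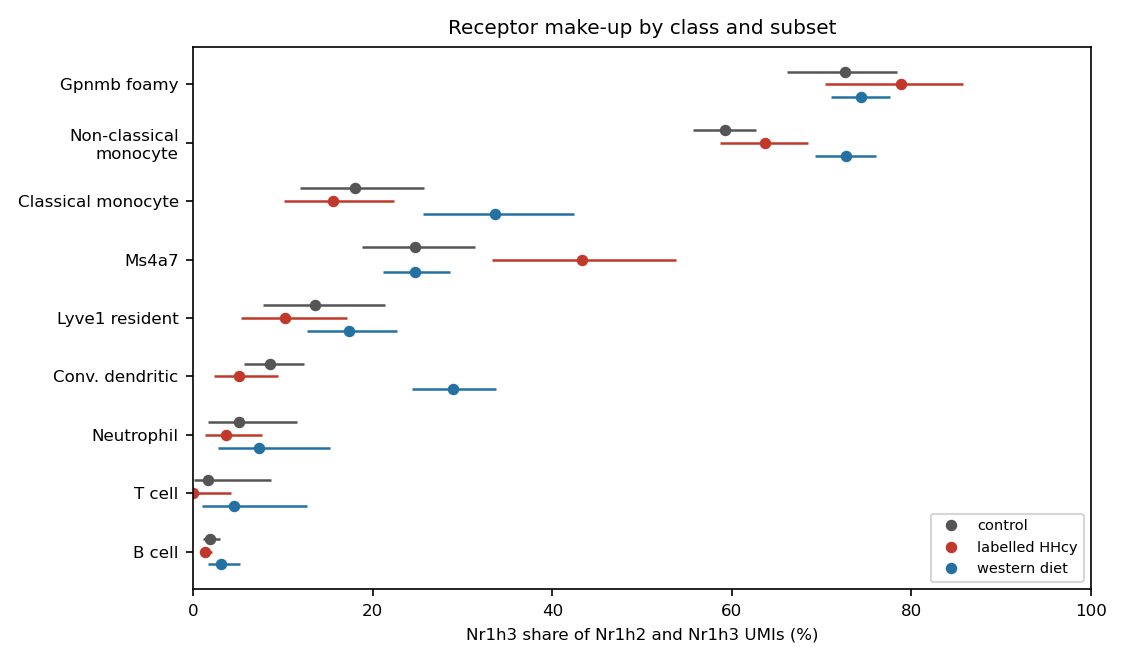
Nr1h3 share of the UMIs of Nr1h2 and Nr1h3 (%) by class and macrophage/monocyte subset, with points for the 3 libraries and lines for 95% Clopper-Pearson intervals. Gpnmb foamy-like macrophages and non-classical monocyte-like cells lie between 59.2% and 78.8%, and B cell-like cells between 1.27% and 3.06%.

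The 2 transporters did not share a subset order. Abca1 was highest in Gpnmb foamy-like macrophages (371, 344 and 292 CPM) and Lyve1 resident-like macrophages (309, 321 and 366 CPM), whose ranges overlapped. Ms4a7 macrophages followed at 258, 249 and 203 CPM. Classical monocyte-like cells, the Ly6C-high type, had the lowest median at 35.1, 27.3 and 61.6 CPM. They overlapped with cycling cells at 39.9, 17.8 and 82.2 CPM, which were the lower of the 2 in the library labelled HHcy.

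Abcg1 was also highest in Gpnmb foamy-like macrophages, at 373, 472 and 398 CPM, and overlapped there with an unnamed subset led by Mmp13 at 379, 283 and 385 CPM. Unlike Abca1 it was lowest in Lyve1 resident-like macrophages, at 38.9, 25.2 and 63.0 CPM. Non-classical monocyte-like cells held much Abcg1 (208, 204 and 343 CPM) beside little Abca1 (59.2, 58.7 and 120 CPM). The resident and the patrolling cells were thus opposite in the 2 transporters in each of the 3 libraries.

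Pltp was highest in Lyve1 resident-like macrophages, at 1019, 1213 and 1431 CPM, above the range of every other subset. A subset led by Prg4 (640, 661 and 751 CPM) and the Ms4a7 macrophages (629, 499 and 680 CPM) followed and overlapped. Classical monocyte-like cells were lowest at 45.1, 44.5 and 69.7 CPM. Mylip peaked in the subset led by Mmp13 at 220, 255 and 159 CPM, and Lpcat3 medians lay between 15.6 and 32.1 CPM in all 8 subsets. Subset sizes differed between libraries: Ms4a7 macrophages numbered 231, 118 and 753 cells and Gpnmb foamy-like macrophages 115, 32 and 262.

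**Figure D3:**
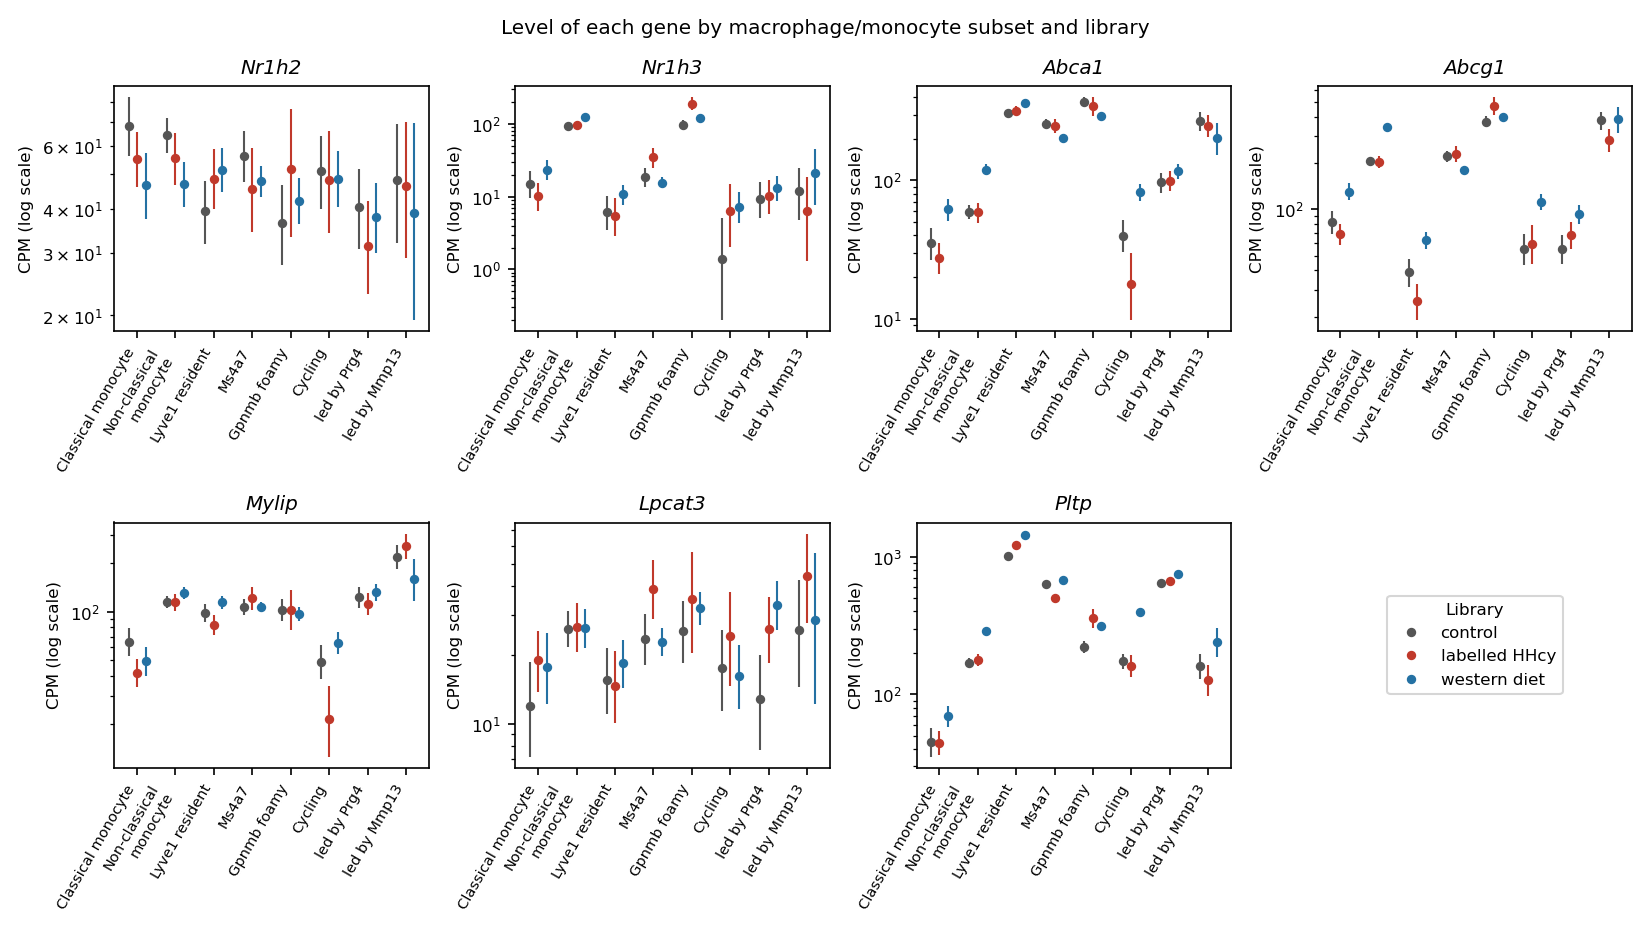
Level of each of the 7 genes (CPM, log axis) in the 8 macrophage/monocyte subsets, with points for the 3 libraries and lines for 95% Poisson intervals. Nr1h3 is high in foamy-like macrophages and non-classical monocyte-like cells, Abcg1 is lowest and Pltp highest in Lyve1 resident-like macrophages, and the WD points of Abca1, Abcg1 and Pltp lie above control in both monocyte subsets.

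The western diet comparison asks how the genes stood after added dietary fat. Over all macrophage/monocyte-like cells 1 of 7 genes was past the limit, against 7.38% of 12960 genes tested. It was Pltp, higher than in control (log2 ratio 0.59, interval 0.55 to 0.63), just at the limit. Abca1 (1.22-fold) and Abcg1 (1.23-fold) were higher without reaching it, and the median log2 ratio of the 7 genes was 0.21 against -0.02 over all genes. With the same subset mix in both libraries Pltp was at 0.42 and no gene was past the limit.

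The class value covered subsets that differed. In non-classical monocyte-like cells 3 of 7 genes were past the limit, all higher, against 5.82% of 9740 genes. Abca1 was 2.02-fold higher (log2 ratio 1.02, 0.80 to 1.23), Abcg1 1.65-fold (0.73, 0.61 to 0.84) and Pltp 1.68-fold (0.75, 0.62 to 0.88). In each of the 3 genes the WD level stood above both other libraries, which lay close together. Nr1h3 was 1.34-fold higher and Nr1h2 0.730-fold, neither past the limit. The 3 calls held in each of the 10 alternatives run for this subset, with Abca1 between 0.78 and 1.05, Abcg1 between 0.61 and 0.81 and Pltp between 0.63 and 0.81.

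Macrophage RNA moved in the same direction in these monocytes. The summed level of 10 macrophage markers, all 10 of them detected in each library, was 382, 403 and 614 CPM. Without the cells that held 3 or more UMIs of these markers, which left 473 control and 285 WD cells, the log2 ratios were 1.02 for Abca1, 0.81 for Abcg1 and 0.78 for Pltp.

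Classical monocyte-like cells also had 3 of 7 genes past the limit, all higher, against 11.3% of 8119 genes. Abca1 was 1.76-fold, Abcg1 1.57-fold and Pltp 1.54-fold higher. These calls were less steady than in the patrolling cells. Without the cells that held 3 or more macrophage marker UMIs, which left 114 and 63 cells, Abca1 was at 0.46 (-0.21 to 1.13), Abcg1 at 0.27 and Pltp at -0.51, none past the limit. The markers summed to 344, 370 and 665 CPM. After thinning to 1000 UMIs a cell no call was left either, with Abcg1 at -0.03.

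Abca1 was not past the limit in the macrophage subsets that held the most of it. Ms4a7 macrophages had 0 of 7 genes past the limit, against 6.8% of 10754 genes, and Gpnmb foamy-like macrophages 0 of 7, against 7.95% of 9308. Abca1 was 0.789-fold in the former (log2 ratio -0.34, -0.47 to -0.21) and 0.788-fold in the latter (-0.34, -0.48 to -0.20). Lyve1 resident-like macrophages had 1 of 7, against 6.04% of 10145 genes: Abcg1, 1.62-fold higher (0.70, 0.35 to 1.05), with Pltp 1.40-fold. The intervals of the Abca1 ratio in non-classical monocyte-like cells and in these 3 subsets did not overlap, but the difference between subsets was not tested over replicate libraries.

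Cycling macrophage/monocyte-like cells, 63 in control and 113 in WD, had 4 of 7 genes past the limit in the WD library, all higher, against 13.3% of 9343 genes. Abca1 was at 39.9 and 82.2 CPM (log2 ratio 1.04, 0.61 to 1.5), Abcg1 at 55.2 and 112 CPM (1.02) and Pltp at 174 and 397 CPM (1.19). Nr1h3 rested on 2 and 18 UMIs. The only alternative run for these cells left out Apoe-rich ones, and no cell of this subset was rich in Apoe in either library. In the WD library the subset led by Prg4 had 2 of 7 genes past the limit, both higher, against 3.46% of 8616 genes higher. The subset led by Mmp13 had 0 of 6 tested, against 3.61% of 4846 genes higher and 3.63% lower. No alternative was run for either subset.

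**Figure D4:**
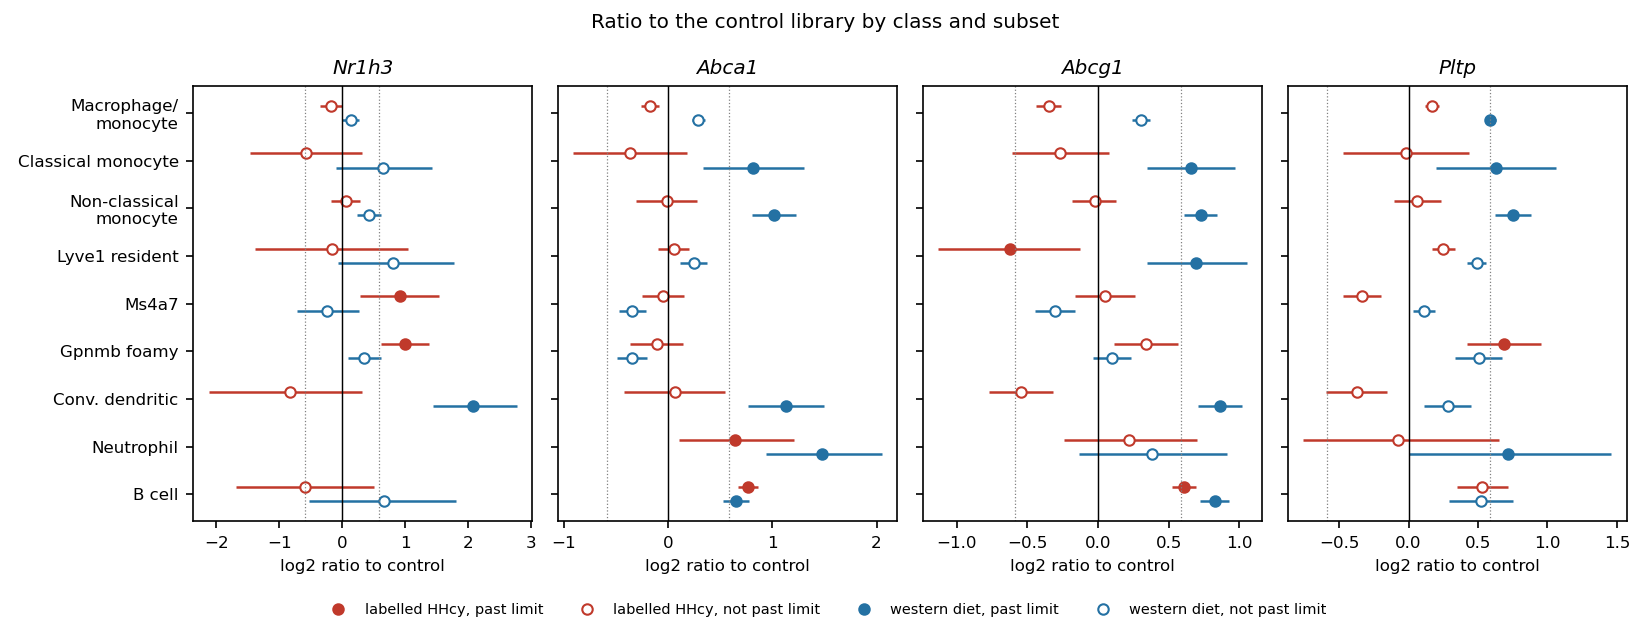
Log2 ratio to control of Nr1h3, Abca1, Abcg1 and Pltp by class and subset for the library labelled HHcy and the WD library, with 95% exact conditional binomial intervals; filled points are past the 1.5-fold limit (dotted lines) and genes under 20 UMIs are left out. The WD points of Abca1 are past the limit in both monocyte subsets and in conventional dendritic-like, neutrophil-like and B cell-like cells, and below 0 in Ms4a7 and Gpnmb foamy-like macrophages.

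In conventional dendritic-like cells, which present antigen to T cells, 4 of 7 genes were past the limit in the WD library, all higher, against 9.79% of 10539 genes. The levels were 23.6 and 41.3 CPM (control and WD) for Mylip, 16.8 and 36.8 for Abca1, 95.2 and 173 for Abcg1, and 4.58 and 19.4 for Nr1h3. The log2 ratios were 0.80 for Mylip (0.49 to 1.13), 1.13 for Abca1 (0.76 to 1.5), 0.86 for Abcg1 (0.70 to 1.02) and 2.08 for Nr1h3 (1.44 to 2.77). The median of the 7 genes was 0.80 against -0.00 over all genes.

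Macrophage markers again stood higher beside these values, at 293, 392.2 and 575 CPM, with 188 and 856 CPM in control and WD in mature dendritic-like cells alone. The summed level of 11 neutrophil markers moved too, at 316, 2073 and 649 CPM in all conventional dendritic-like cells and at 177, 10310 and 1258 CPM in the mature ones, and its part in these results was not tested. Without the cells holding 3 or more macrophage marker UMIs, which left 251 and 123 cells, Abca1 (0.75), Abcg1 (0.74) and Mylip (0.68) were still past the limit. Nr1h3 was not: its levels were 5.47 and 4.22 CPM and its log2 ratio was -0.38 (-1.88 to 0.95). After thinning to 1000 UMIs a cell Mylip alone was past the limit, with Abca1 at 0.71. With the same subset mix in both libraries Abcg1 was at 0.58, under the limit, and Abca1 (0.96), Mylip (0.73) and Nr1h3 (1.80) were past it. By subset, Abca1 was past the limit in mature dendritic-like cells (1.71) only, and not in type 1 (0.705) or type 2 (0.559) conventional dendritic-like cells. The mature Abca1 call was lost without the cells holding 3 or more macrophage marker UMIs. In mature cells 4 of 7 genes were higher, against 7.31% of 7182 genes higher. In type 1 cells 3 of 6 tested were higher, against 3.52% of 8036, and in type 2 cells 2 of 7, against 4.98% of 9241. Pltp was at 2.23 in the mature cells, past the limit in each of the 9 alternatives that gave a value. It was at 1.26 in type 1 cells, a call kept in 8 of 10 alternatives, and at -0.16 in type 2 cells.

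Neutrophil-like cells had 2 of the 6 genes that could be tested past the limit, against 13.2% of 5988 genes. Over all genes 4.76% were higher and 8.42% lower. Abca1 was at 38.2 and 107 CPM in control and WD, 2.79-fold higher (log2 ratio 1.48, 0.94 to 2.05), and was past the limit in each of the 11 alternatives run, between 1.10 and 1.73. Without cells holding 3 or more macrophage marker UMIs it was at 1.73. Pltp was 1.64-fold higher on 26 and 50 UMIs, with an interval that reached 0.00 on the log2 scale. Macrophage markers summed to 327, 297 and 466 CPM in these cells.

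B cell-like cells of the WD library had 2 of 7 genes past the limit, both higher, against 4.34% of 11509 genes. Abca1 was 1.57-fold (log2 ratio 0.65, 0.53 to 0.78) and Abcg1 1.77-fold higher (0.82, 0.72 to 0.93). With the same sub-cluster mix in both libraries the ratios were 0.59 and 0.65, still past the limit. Thinning to 1000 UMIs a cell left neither gene past the limit, with Abcg1 at 0.56, and macrophage markers summed to 139, 170 and 209 CPM. T cell-like cells had 0 of 6 tested genes past the limit, against 8% of 7638 genes, with Abca1 at 21.2 and 22.2 CPM.

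The homocysteine comparison asks how the genes stood in the library labelled HHcy. In macrophage/monocyte-like cells 0 of 7 genes were past the limit, against 6.09% of 12382 genes, and the same count was found without the cells holding 10 or more Apoe UMIs. Apoe itself was still past the limit, higher, in the cells left, so this filter did not remove all of the Apoe signal. Log2 ratios ran from -0.35 for Abcg1 (-0.44 to -0.26) to 0.26 for Lpcat3 (0.03 to 0.49), with a median of -0.16 against -0.03 over all genes. Without the Apoe-rich cells Pltp moved from 0.17 to -0.08. In non-classical monocyte-like cells 0 of 7 were past the limit, against 5.05% of 9418 genes, and Abca1 was at -0.01 (-0.31 to 0.28).

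Among the other subsets, the library labelled HHcy differed from control in single genes. The subset led by Prg4 had 1 of 7 genes past the limit, higher, against 2.7% of 8116 genes higher. The one led by Mmp13 had 0 of 6 tested, against 3.23% of 5381 genes higher and 4.14% lower. Gpnmb foamy-like macrophages, only 32 cells there, had 2 of 7 genes past the limit, against 10.3% of 7359 genes: Nr1h3 at 1.99-fold (log2 ratio 1.00, 0.61 to 1.37) and Pltp at 1.61-fold. Ms4a7 macrophages had 2 of 7, against 8.07% of 8976: Nr1h3 at 1.88-fold (0.91, 0.28 to 1.54) and Lpcat3 at 1.66-fold. Nr1h3 in Ms4a7 macrophages kept its call in each of the 6 alternatives that gave a value. Thinning to 1000 UMIs gave none, since 0 of 118 cells then held an Nr1h3 UMI, which allows up to 2.54%, against 0.866% of 231 control cells. Its 42 UMIs came from 15 of these cells, 88.1% of them from the top 10, and the share of cells with a UMI was 12.7% against 11.7% in control. In the foamy-like cells Nr1h3 and Pltp kept their calls in 6 and 4 of 9 alternatives. Lyve1 resident-like macrophages had 1 of 7, against 7.1% of 9615 (Abcg1, 0.649-fold, a call kept in 1 of 9 alternatives), and classical monocyte-like cells 1 of 7, against 11.4% of 8327 (Mylip, 0.642-fold, kept in 5 of 10). Conventional dendritic-like cells had 0 of 7, against 8.93% of 10258, with Abcg1 at 0.686-fold, beside the neutrophil markers given above. The 32 cycling cells had 2 of 6 tested genes past the limit, both lower, against 11% of 8110 genes: Abca1 at -1.16 (-2.12 to -0.30) and Mylip at -1.18 on the log2 scale. Without 3 Apoe-rich cells Abca1 was at -1.65 and Mylip at -1.03, and Pltp moved from -0.11 to -1.14.

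In B cell-like cells of the library labelled HHcy 2 of 7 genes were past the limit, both higher, against 11.5% of 12151 genes. Over all genes 4.21% were higher and 7.32% lower. Abca1 was 1.70-fold (log2 ratio 0.77, 0.67 to 0.86) and Abcg1 1.52-fold higher (0.61, 0.52 to 0.69), beside neutrophil markers at 87.3, 225 and 133 CPM in the 3 libraries. Only 13 of 3547 of these cells held 10 or more Apoe UMIs, so leaving them out could move the ratios little, and Apoe was still past the limit in the rest. The B cell-like cells fell into 7 sub-clusters, and the 2 with Fcer2a, the low-affinity IgE receptor of follicular B cells, among their leading genes held the most Abca1 among the 6 larger ones. The smallest, led by Basp1, had 20, 10 and 3 cells. The 2 Fcer2a-rich sub-clusters made up 34.4%, 75.2% and 41.0% of B cell-like cells in control, HHcy and WD.

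Within the sub-cluster led by Satb1 Abca1 was at 137, 157 and 183 CPM, and within the one led by Pxdc1 at 135, 135 and 223 CPM. In the sub-cluster led by Zcwpw1 it was at 50.1, 49.1 and 68.9 CPM, and in the one led by S100a4 at 41.2, 48.6 and 49.6 CPM. With the same sub-cluster mix in both libraries the ratios to control were, on the log2 scale, 0.11 for Abca1 (0.00 to 0.22) and 0.20 for Abcg1 (0.10 to 0.30), and neither gene was past the limit. The Abcg1 value averages sub-clusters that went opposite ways. From control to the library labelled HHcy it went from 177 to 106 CPM in the one led by Vpreb3. In the one led by Ighg2b it went from 35.5 to 70.5 CPM. Both calls were also absent when the libraries were clustered separately, with Abca1 at 0.46.

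**Figure D5:**
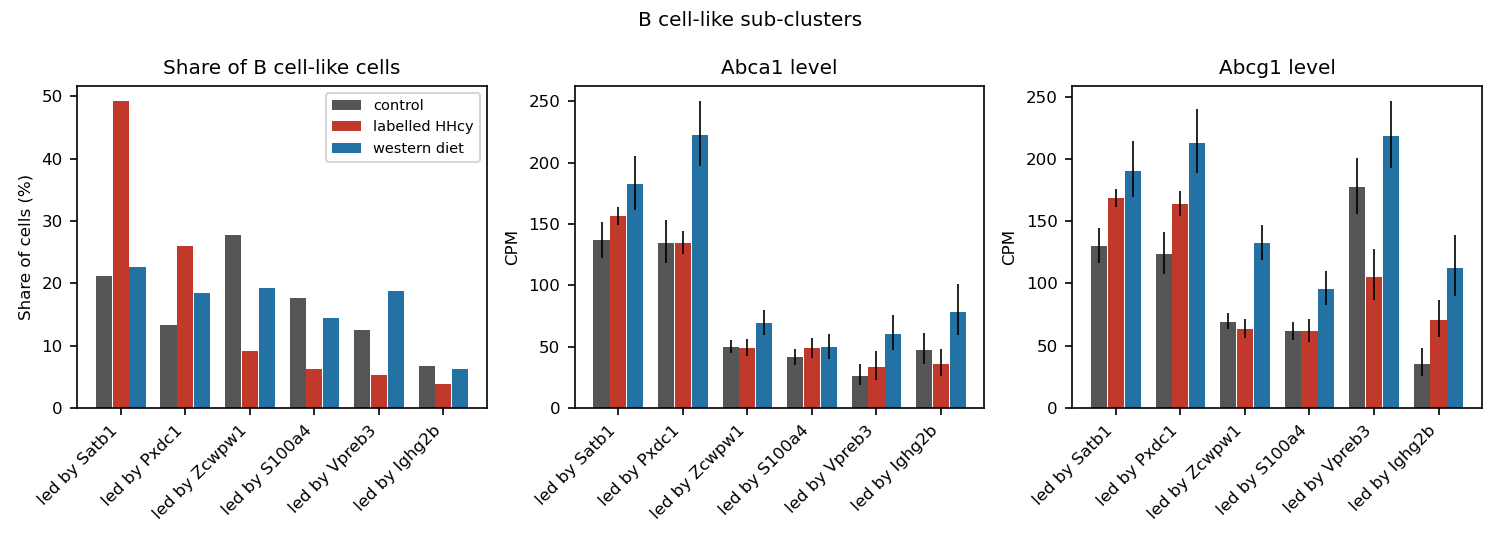
Share of B cell-like cells (%) and level of Abca1 and Abcg1 (CPM) in the 6 largest B cell-like sub-clusters, named by their leading gene, with bars for the 3 libraries and lines for 95% Poisson intervals. The library labelled HHcy has more cells in the sub-clusters led by Satb1 and Pxdc1, where Abca1 is highest, while its Abca1 levels of 157 and 135 CPM there are near the 137 and 135 CPM of control.

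Neutrophil-like cells of the library labelled HHcy had 1 of 6 tested genes past the limit, against 25.6% of 6725 genes. It was Abca1, 1.56-fold higher (log2 ratio 0.64, 0.11 to 1.21). Over all genes 5.03% were higher and 20.6% lower, with a median log2 ratio of -0.28.

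The wider pathway was read from lists of known genes, described by counts only. In the WD library the SREBP2 targets, which make and take up cholesterol, stood on the lower side in some of the cells described here. In non-classical monocyte-like cells 3 of 15 tested SREBP2 targets were lower and 0 higher, with a median log2 ratio of -0.42 against -0.00 over all genes, of which 2.55% were lower. In conventional dendritic-like cells 8 of 18 were lower and 0 higher, with a median of -0.60, against 4.66% of all genes lower. In all macrophage/monocyte-like cells 3 of 19 were lower and 0 higher, with a median of -0.10, against 4.01% of all genes lower. Ms4a7 macrophages had 1 of 19 lower and 2 higher, with a median of -0.04, against 3.63% of all genes lower and 3.17% higher. Gpnmb foamy-like macrophages had 2 of 17 lower and 0 higher, with a median of 0.06, against 4.97% of all genes lower. Cycling cells had 10 of 18 lower and 0 higher, with a median of -0.79, against 5.32% of all genes lower. Mature dendritic-like cells had 9 of 12 lower and 1 higher, with a median of -1.03, against 5.9% lower. Classical monocyte-like cells had 3 of 13 lower (median -0.33), against 6.97%, and Lyve1 resident-like macrophages 1 of 16 (median -0.19), against 3.07%.

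Srebf2 itself was at -0.65 in macrophage/monocyte-like cells and -1.08 in non-classical monocyte-like cells, and Insig1, which retains SREBP2 in the endoplasmic reticulum, at -0.69 in macrophage/monocyte-like cells. Stard4 (-1.54), Sqle (-1.17) and Hmgcs1 (-0.93) in conventional dendritic-like cells, genes of sterol transport and synthesis, were named after their values were seen. Without cells holding 3 or more macrophage marker UMIs 9 of 18 targets were lower in dendritic-like cells and 5 of 15 in non-classical monocyte-like cells. Before this filter 4.66% and 2.55% of all genes were lower there, and the shares after it are not given here.

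Of the other known LXR targets, 1 of 18 was higher and 1 lower in macrophage/monocyte-like cells of the WD library: Scd2, a fatty acid desaturase, at 0.74 and Apoc2, an activator of lipoprotein lipase, at -0.87, against 3.37% of all genes higher and 4.01% lower. Srebf1, the LXR target that drives fatty acid synthesis, was at 19.1 and 18.2 CPM (-0.07). In conventional dendritic-like cells 5 of 15 were higher, against 5.13% of all genes, and 1 lower. Without cells holding 3 or more macrophage marker UMIs 2 of 13 were higher there, and Scd1, Lpl and Mertk were no longer among them. The 5.13% is the share before this filter. In non-classical monocyte-like cells 2 of 15 were higher, against 3.28% of all genes, and 1 lower. Ch25h, which makes the LXR ligand 25-hydroxycholesterol, was at 19.0 and 36.0 CPM in macrophage/monocyte-like cells (0.92, 0.74 to 1.11), the only 1 of 5 ligand genes past the limit. The receptor partners and coregulators had 0 of 9 past the limit, with Rxra at -0.05 and Rxrb at -0.19. Of 15 genes of efflux, trafficking and storage, Osbpl1a (0.73) was higher and Cav1 (-1.0) lower. With the same subset mix in both libraries Ch25h, Apoc2 and Osbpl1a were no longer past the limit, while Scd2 and Cav1 were.

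In the library labelled HHcy 0 of 19 SREBP2 targets were past the limit in macrophage/monocyte-like cells. In B cell-like cells of that library 7 of 19 were lower and 0 higher, with a median log2 ratio of -0.41, against 7.32% of all genes lower. The count was also 7 of 19 with the same sub-cluster mix, against 3.09% of all genes. For B cell-like cells of WD 2 of 19 were lower, against 1.56% of all genes.

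Among the other known LXR targets 3 of 18 were higher and 1 lower in macrophage/monocyte-like cells of the library labelled HHcy, against 3.11% of all genes higher and 2.98% lower: Apoe (5.49), Cd5l, an apoptosis inhibitor of macrophages (0.94), and Smpdl3a, a phosphodiesterase (0.60), were higher, and Lpl, lipoprotein lipase, was at -0.61. The Apoe value goes against the genotype label. With the same subset mix Smpdl3a and Lpl were no longer past the limit, and Lpl was not without the Apoe-rich cells either. The partner, ligand and efflux lists had 0 of 9, 0 of 5 and 0 of 15 past the limit.

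The genes most like each of the 7 were sought over 15 points, 5 classes in 3 libraries, among 4963 genes with at least 50 CPM in a point. The points share libraries and cell classes, so the correlations are descriptions. Nr1h3 was most like Tmem86a (Pearson r 0.969), Arhgef10l (0.964) and Tnfsf13 (0.961), and Pltp most like Mfsd1 (0.987), Lamp1 (0.983) and Lpl (0.980). Abca1 was most like Tlr7 (0.918), Blvrb (0.860) and Arap1 (0.854), and Abcg1 most like Hpgds (0.867), Cd72 (0.852) and Nrp2 (0.819). Neither transporter was among the 3 genes most like the other. Nr1h2 was most like Tob1 (0.926), Acpp (0.915) and Golim4 (0.912), Mylip most like Capg (0.904), Tspan14 (0.856) and Hes1 (0.848), and Lpcat3 most like Was (0.896), Drap1 (0.878) and Ube2a (0.872).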

How the data were processed

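The authors deposited raw counts, that is UMIs of each gene in each barcode, with no scaling. Per the file headers they come from Cell Ranger 4.0.0, and the submitters' processing notes name Cell Ranger 2.2.0 and mm10; which version made the counts is not settled. No column belonged to another study (0 columns).

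Barcodes with under 200 detected genes or over 10% mitochondrial UMIs were left out. A marker rule left out 11.5%, 22.0% and 21.9% of the rest as doublets: barcodes that reached the limit of 2 or more lineages (7 detected markers for B cells, 6 for T or NK cells, 8 for myeloid cells, 8 for neutrophils, 6 for stromal cells). It cannot mark doublets of 1 lineage. The libraries were clustered together (2000 variable genes without the 7 genes and the pathway lists, 30 principal components, 20 neighbours, Leiden resolution 1, subsets at 0.5, seed 1). Clusters were named from marker genes, and clusters led by markers of another class were left out; several of these choices were made with the data in view.

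UMIs were summed per class or subset and library. Shares of cells have Clopper-Pearson intervals and levels have Poisson intervals, and a count of 0 was read as allowing 3 counts. The ratio script was tested on simulated counts. The 7 genes and the gene lists were chosen with earlier results of these data known. Genes named from a pathway list are the up to 3 with the largest log2 ratio past the limit in macrophage/monocyte-like cells, plus Rxra, Rxrb and Srebf1, and the 3 genes most like each of the 7; 1 further gene of this rule is not reported here. The alternatives are a 20% mitochondrial limit, doublets kept, other clustering and naming, median-of-ratios scaling, thinning, no filter on low counts, and leaving out Apoe-rich cells. Python 3.11.15 with scipy 1.17.1, scikit-learn 1.9.0 and leidenalg 0.10.2 was used.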

Additional observations from a re-analysis of the deposited data

Results flagged for a closer look

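In the library labelled HHcy, calls of Abca1 and Abcg1 lay on both sides of control in different cell types. No difference between cell types was tested, since each group has 1 library, and several of the calls were unsteady. On the log2 scale Abca1 was higher than in control in B cell-like cells (0.77) and neutrophil-like cells (0.64) and lower in cycling macrophage/monocyte-like cells (-1.16), against 11% of 8110 genes past the limit in the latter. The cycling value rests on 32 cells of that library and was at -1.65 without the Apoe-rich ones, the only alternative run for it. The neutrophil-like value kept its call in 10 of 11 alternatives and lost it after thinning.

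Abcg1 was higher in B cell-like cells (0.61) and lower in Lyve1 resident-like macrophages (-0.62) and mature dendritic-like cells (-0.71). With the same sub-cluster mix the B cell-like values were 0.11 for Abca1 and 0.20 for Abcg1, neither past the limit. The Lyve1 call was kept in 1 of 9 alternatives. The mature dendritic-like value rests on 35 and 78 cells, where 10% of 5599 genes were past the limit, and was kept in 9 of 10 alternatives. Neutrophil markers there summed to 10310 CPM against 177 CPM in control, and their part in the value was not tested.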

How the results depend on the processing

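Of 1640 recomputed log2 ratios, 1488 lay within the 95% counting interval of the reported value, 142 lay outside it and 10 changed the sign of a value past the limit. Over all values, past the limit or not, 147 changed sign. Members past the limit in macrophage/monocyte-like cells of WD numbered 1, and 0 at Leiden resolution 2, with cells named 1 by 1 from markers, without cells rich in Apoe and with the same subset mix. In B cell-like cells of the library labelled HHcy 2 became 0 with each library clustered on its own, 0 with the same sub-cluster mix and 1 (Pltp) after thinning to 1000 UMIs. In B cell-like cells of WD 2 became 1 on separate clustering (Abcg1) and 1 after thinning (Pltp). In conventional dendritic-like cells of WD 4 became 1 after thinning (Mylip). In those of the library labelled HHcy 0 became 1 (Abcg1, lower) with doublets kept, with cells named 1 by 1 from markers, with median-of-ratios scaling and without cells holding macrophage markers. Beyond the construction of each alternative, the cause was not tested.

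Among values past the limit, signs changed after thinning for Mylip (0.0865, HHcy) and Abcg1 (-0.0255, WD) in classical monocyte-like cells, Lpcat3 in Ms4a7 macrophages (-2.03, HHcy), and Mylip in type 1 (-0.55, WD) and Abcg1 in type 2 (-0.0403, WD) conventional dendritic-like cells. Naming each cell by its own markers changed Pltp in foamy-like macrophages (-0.21, HHcy). Without cells holding macrophage markers, Nr1h3 in WD was at -0.38 in conventional, -0.22 in type 2 and -0.67 in mature dendritic-like cells, and Pltp at -0.51 in classical monocyte-like cells. That alternative, the same mix outside macrophages, and leaving out Apoe-rich cells among T cell-like and cycling cells were chosen after seeing the data.

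No paired analysis was possible because each group has 1 library and its number comes from accession order. Depth limits Nr1h3 outside the myeloid cells, and thinned levels rest on few UMIs.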
